A study of Caenorhabditis elegans with 3 samples.

Results

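The genes described here encode the enzymes that activate fatty acids and break them down by beta-oxidation in the nematode Caenorhabditis elegans, and their transcripts were followed in late third-stage larvae (late L3). Members were taken by name, from probes given to exactly 1 gene: the families acs, cpt, acdh, acox, ech, maoc, hacd, kat and acaa, with daf-22 and dhs-28, and without acdh-1 and ech-6, which were left out by the rule. This gave 62 probes for 58 genes, of 15182 genes with such a probe. Of the 58, 57 had a value on all 3 arrays and are the members counted below. The remaining gene, acdh-2, had no value in preparation (prep) 1 and was at -0.37 and 0.17 in preps 2 and 3. The genes acdh-10, acs-13, cpt-1, cpt-3 and ech-7, which the RefSeq gene table names in the same families, had no probe of their own and were not analysed here.

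Transcripts of late L3 hermaphrodites were measured on 3 microarrays with 2 colours, 1 for each of preps 1, 2 and 3, each co-hybridised with a common wild-type mixed reference. Treatment, strain and culture are not in the labels, nor are the stages and sexes pooled in the reference. The labels do not say whether the preps came from separate cultures, so the spread between these 3 samples may be technical. The p-values set each mean against this spread after pooling it in part over all genes. They therefore do not rest on the printed SD of a gene alone. Prep, array and the date in the array title cannot be told apart. Each value is a log2 ratio minus the median of its array, so 1 unit is a 2-fold difference, and late L3 over reference is used as the likely direction only, because the labels do not state which channel is the numerator.

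With the direction so taken, markers of adult egg production mostly stood far below the array median. To read this as a check, the reference must hold egg-producing adults, which the labels do not state. The lists were also chosen with earlier results of these data known, so the markers do not settle the direction. Of 12 markers of oocytes and the eggshell, 10 were called lower and 0 higher, with a median of the mean log2 ratios of -2.76, and of 8 sperm genes 5 were lower and 0 higher, with a median of -0.78. Over all 15143 genes tested, 11.9% were called lower and 11.4% higher, by limma at an adjusted p under 0.05. The lists of gut and skin markers had medians above the array median. Of 11 intestine markers 6 were higher and 0 lower, with a median of 1.08 and list medians of 1.09, 1.28 and 0.42 in preps 1, 2 and 3. Of 8 epidermis markers 4 were higher and 0 lower, with a median of 0.76 and list medians of 0.55, 1.29 and 1.26. The labels name larvae and no tissue, so fewer cells of a type and less RNA per cell cannot be told apart in any value below.

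Fatty acids are joined to coenzyme A by acyl-CoA synthetases before any other step. In mitochondria, where carnitine palmitoyltransferases bring long chains in, an acyl-CoA dehydrogenase, an enoyl-CoA hydratase, a hydroxyacyl-CoA dehydrogenase and a thiolase then remove acetyl units in turn. Peroxisomes run the same cycle with an oxidase in place of the dehydrogenase. In this worm the peroxisomal enzymes ACOX, MAOC-1, DHS-28 and DAF-22 shorten very long chains and the side chains of ascarosides, the small molecules of the dauer pheromone, and intestine and epidermis are main sites of fat metabolism.

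The 3 members that stood highest above the reference, acox-1.2, daf-22 and dhs-28, belong to the peroxisomal cycle, and the fasting-inducible acyl-CoA synthetase gene acs-2 stood lowest. By limma at an adjusted p under 0.05, 21 of the 57 members were higher (36.8%), against 11.4% of all 15143 genes tested. Lower calls numbered 3 (5.26%), against 11.9% of all genes, and 33 members did not pass. Calls either way made up 42.1% of the members and 23.3% of all genes. Of the 57 members, 16 were called higher and by at least 1 log2 unit, against 1016 of all 15143 genes (6.71%). The 3 lower members (5.26% of the 57) were all lower by as much, against 6.96% of all genes. The adjusted p-values of the 24 called members lay between 1.39e-05 and 0.0484.

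The same lean was present without a threshold. The median of the members' mean log2 ratios was 0.49, while that of all genes was 0.00, and the members' medians were 0.27, 0.58 and 0.36 in preps 1, 2 and 3. On all 3 arrays, 29 members (50.9%) lay above the array median, against 26.8% of all genes, and 10 (17.5%) lay below it, against 29.2%. The other 18 had both signs. Across the 57 members, Pearson's r between preps was 0.75 for 1 and 2, 0.80 for 1 and 3 and 0.87 for 2 and 3, beside 0.71, 0.72 and 0.78 across all genes; all these values share the reference. The median SD over the preps was 0.35 for members and 0.34 for all genes.

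**Figure D1:**
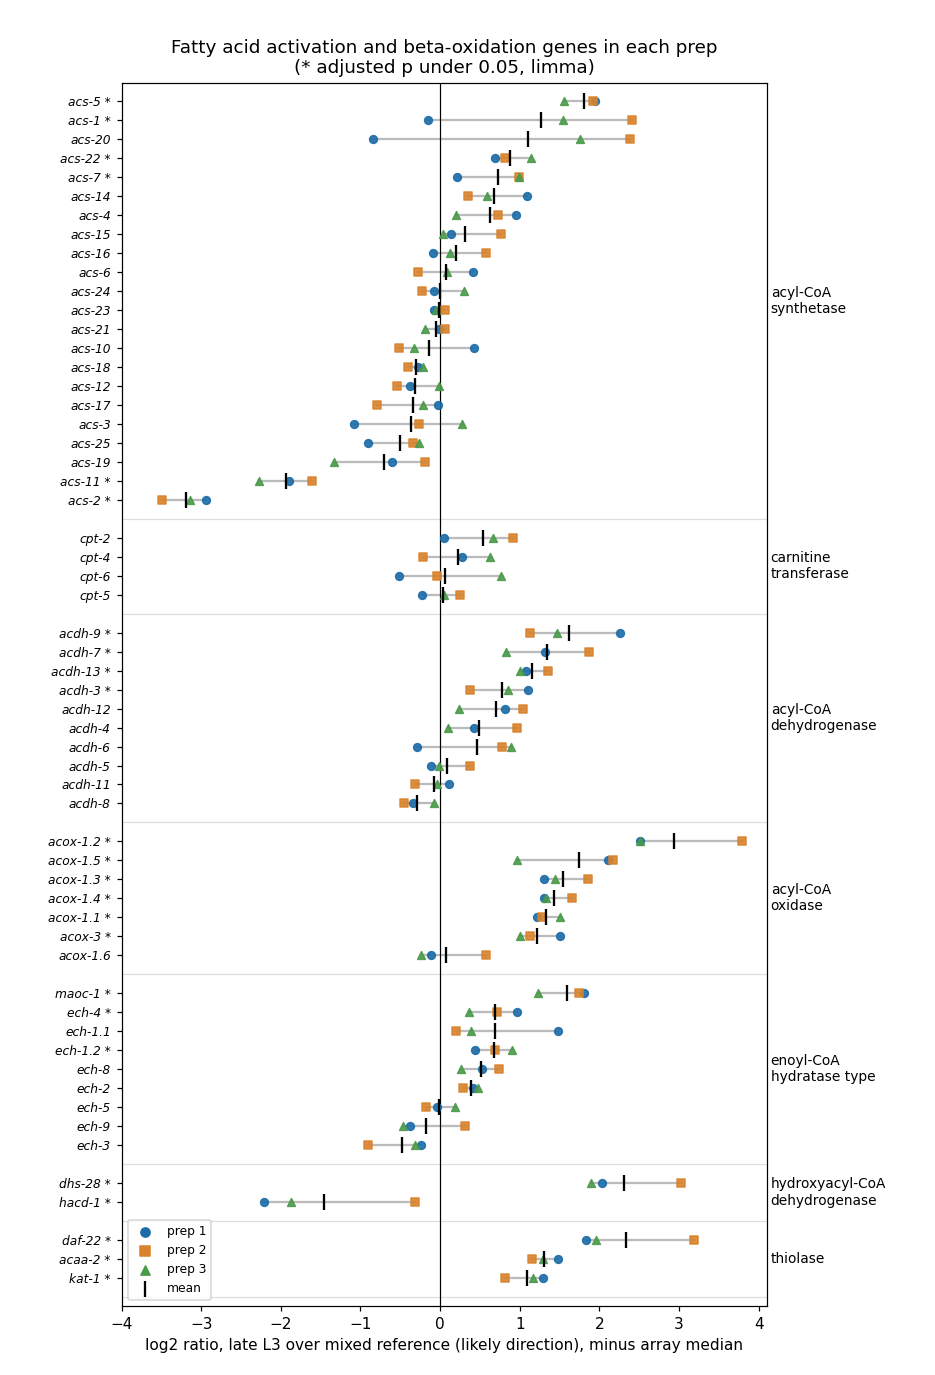
Log2 ratio of late L3 over mixed reference, minus the array median, for the 57 members on all arrays, grouped by enzyme family; symbols are the 3 preps, the black tick is the mean, the grey bar spans the lowest to the highest prep, and an asterisk marks an adjusted p under 0.05. All 3 preps of the acyl-CoA oxidases other than acox-1.6 lie above 0, while acs-2 lies near -3 and acs-1 and acs-20 spread over more than 2 units.

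The acyl-CoA oxidases carry out the first oxidation in peroxisomes and pass electrons to oxygen. Of 7 measured oxidase genes 6 were higher and 0 were lower, their median was 1.43, and 1 missed the threshold. acox-1.2 (chromosome I) was at 2.51, 3.79 and 2.51 in preps 1, 2 and 3, a mean of 2.94 ± 0.74 (SD, n = 3) or 7.67-fold, and ranked 59 from the top of all 15143 genes (adjusted p = 7.41e-05). Prep 2 was the highest and preps 1 and 3 were alike. acox-1.5 (III) was at 2.11, 2.17 and 0.96, a mean of 1.74 ± 0.68 (adjusted p = 0.00131), so prep 3 was the low sample there. acox-3 (IV) was at 1.51, 1.13 and 1.00, a mean of 1.21 ± 0.26 (adjusted p = 0.00287).

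acox-1.1, acox-1.3 and acox-1.4 lie in a row with acox-1.2 on chromosome I, with no other protein-coding gene between them in the RefSeq table. Their means were 1.33 ± 0.15, 1.54 ± 0.29 and 1.43 ± 0.19, and their values in the 3 preps spanned 1.22 to 1.5, 1.31 to 1.86 and 1.31 to 1.65. The ranges of these 3 genes overlapped one another, whereas the lowest prep of acox-1.2 was above all of them. Related neighbours can cross-hybridise, so a value of a single gene in this row is uncertain. Each of the 4 genes had 2 probes, with means of 0.99 and 1.67 for acox-1.1, 2.66 and 3.21 for acox-1.2, 1.29 and 1.79 for acox-1.3, and 1.31 and 1.55 for acox-1.4. Both probes of each gene were thus on the same side of the median. The X-linked acox-1.6 did not share the pattern of the others, with -0.11, 0.58 and -0.24 and a mean of 0.07 ± 0.44 (adjusted p = 0.855).

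Members assigned to the later peroxisomal steps were higher as well. maoc-1 (II), whose product hydrates the peroxisomal enoyl-CoA, was at 1.80, 1.74 and 1.23 in preps 1, 2 and 3, a mean of 1.59 ± 0.31 (adjusted p = 0.000667). dhs-28 (X), the peroxisomal hydroxyacyl-CoA dehydrogenase, was at 2.03, 3.02 and 1.89, a mean of 2.31 ± 0.62 or 4.96-fold (adjusted p = 0.000205). daf-22 (II), the thiolase that ends the cycle and is needed for dauer pheromone, was at 1.83, 3.19 and 1.96, a mean of 2.33 ± 0.75 or 5.02-fold (adjusted p = 0.000325). The last 2 genes ranked 129 and 126 from the top of all genes, and both had their highest value in prep 2, as acox-1.2 did. acs-7 (II), a peroxisomal synthetase that activates ascaroside side chains, was at 0.21, 0.99 and 0.99, a mean of 0.73 ± 0.45 (adjusted p = 0.0484), with prep 1 the low sample. Its call ended without prep 2 (mean 0.60, adjusted p = 0.212) and without prep 3 (mean 0.60, adjusted p = 0.215).

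In all, 10 of the 11 members assigned to the peroxisomal route were higher, all but acox-1.6. Their median was 1.54, with list medians of 1.51, 1.74 and 1.33 in preps 1, 2 and 3. Without the row of related genes on chromosome I, 6 of 7 were higher, with a median of 1.59. Intestine markers moved the same way, with the values given above, and their part in the peroxisomal values was not tested. The mitochondrial route held 20 members, with 7 higher calls, 2 lower calls and a median of 0.52, and 11 members missed the threshold. The difference between the routes was not tested. The routes were assigned from textbook knowledge, with every acdh gene counted as mitochondrial. The other 26 members were given no route, and of these 4 were higher and 1 was lower, with a median of -0.01. They include most synthetase genes and all ech genes but ech-1.1 and ech-1.2. Of these unassigned ech genes only ech-4 passed. Some unassigned members may act in peroxisomes or in mitochondria, so the counts for each route depend on this assignment.

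**Figure D2:**
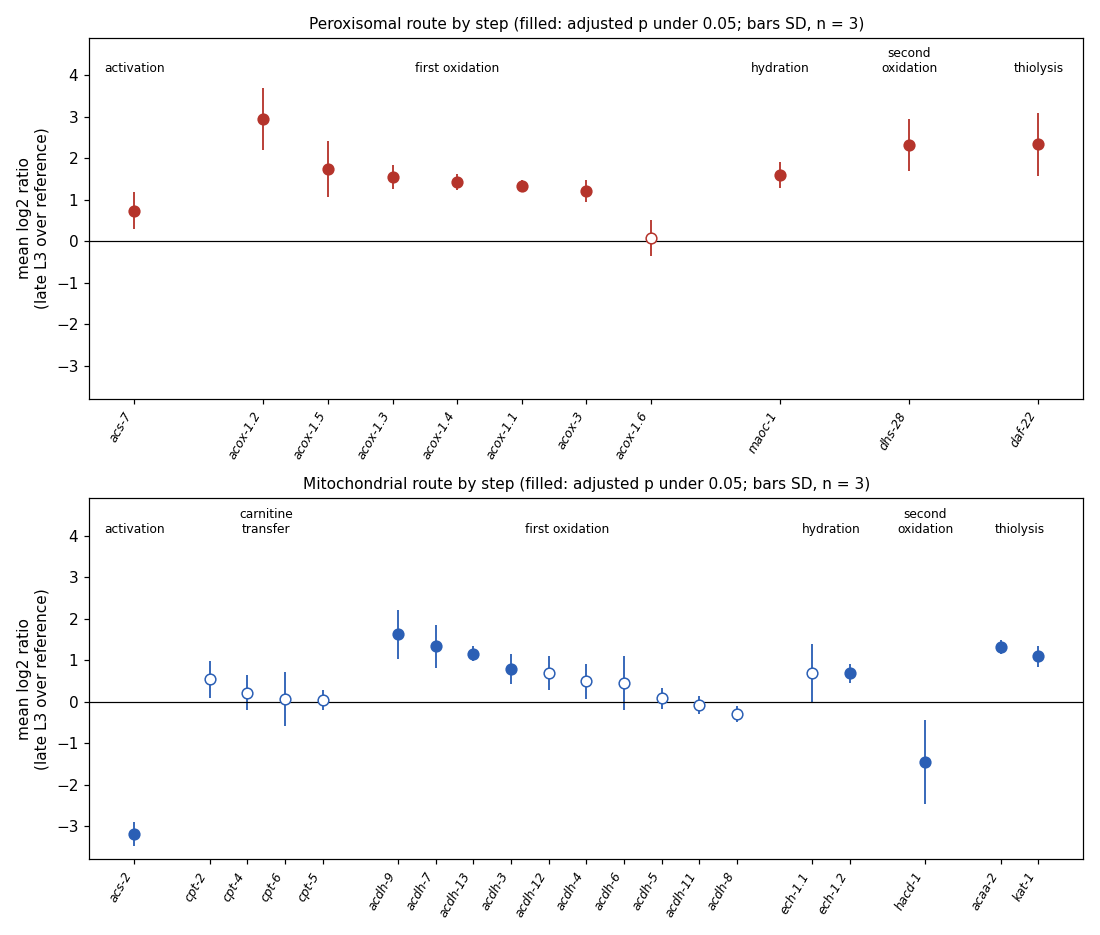
Mean log2 ratio of late L3 over reference with SD over 3 preps for 11 members of the peroxisomal route (upper panel) and 20 of the mitochondrial route (lower panel), ordered by step; filled points passed an adjusted p of 0.05. Every peroxisomal step has a filled point above 0, while the mitochondrial panel holds filled points on both sides of 0 and none among the carnitine palmitoyltransferases.

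In the mitochondrial route acs-2, the only synthetase gene assigned to it, was lower, and no carnitine transfer gene passed. Other synthetase genes, apart from the peroxisomal acs-7, were given no route. Among them were acs-5 (mean 1.81, called higher) and acs-11 (mean -1.93, called lower). Whether any of these acts in mitochondria was not assigned, so acs-2 need not stand for the whole of mitochondrial activation. acs-2 (V), the mitochondrial acyl-CoA synthetase induced by fasting through the nuclear receptor NHR-49, was at -2.94, -3.49 and -3.14 in preps 1, 2 and 3, and ranked 58 from the bottom of all genes (adjusted p = 1.39e-05). All 3 preps were close together and far below 0. None of the 4 measured carnitine palmitoyltransferase genes passed by limma (lowest adjusted p = 0.128), and 1 of them, cpt-2, had an unadjusted p under 0.05 (0.0438). cpt-2 (IV) was at 0.05, 0.92 and 0.66, a mean of 0.54 ± 0.45, and cpt-4, cpt-5 and cpt-6 had means of 0.22 ± 0.43, 0.03 ± 0.24 and 0.06 ± 0.65, each with both signs among the preps.

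Acyl-CoA dehydrogenases carry out the first oxidation in mitochondria. Of 10 measured genes 4 were higher and 0 were lower, their median was 0.60, and 6 missed the threshold. acdh-9 (II) was at 2.26, 1.13 and 1.47 in preps 1, 2 and 3, a mean of 1.62 ± 0.58 (adjusted p = 0.00139). acdh-7 (X), of the medium-chain type, was at 1.32, 1.87 and 0.83, a mean of 1.34 ± 0.52 (adjusted p = 0.00335), and its neighbour acdh-10 was not analysed here. acdh-13 (IV) had the smallest spread of the family, at 1.08, 1.35 and 1.00, a mean of 1.15 ± 0.18 (adjusted p = 0.00342).

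The fourth called dehydrogenase, acdh-3 (I), was at 1.1, 0.38 and 0.85, a mean of 0.78 ± 0.36 (adjusted p = 0.0321). It no longer passed without prep 1 (mean 0.62, adjusted p = 0.156) or without prep 3 (mean 0.74, adjusted p = 0.116). acdh-12 (II), which neighbours maoc-1 with no protein-coding gene between, was at 0.82, 1.04 and 0.24 and fell just outside the threshold (mean 0.70 ± 0.41, adjusted p = 0.0531). It passed without prep 3 (mean 0.93, adjusted p = 0.0404), and acdh-6 (III), at -0.29, 0.78 and 0.89, passed without prep 1 (mean 0.84, adjusted p = 0.0361). The fit without prep 1 treated all genes as equally spread, so its p-values leave out a gene's own spread. The other members, acdh-4, acdh-5, acdh-11 and acdh-8, had means of 0.49, 0.08, -0.08 and -0.29.

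Hydratase genes, counted as the ech genes and maoc-1, had 3 of 9 members higher and 0 lower, with a median of 0.51. Besides maoc-1 these were ech-4 (II), at 0.97, 0.72 and 0.36 in preps 1, 2 and 3 (mean 0.69 ± 0.31, adjusted p = 0.0480), and ech-1.2 (I), at 0.44, 0.69 and 0.90 (mean 0.68 ± 0.23, adjusted p = 0.0456). ech-1.1 (V) and ech-1.2 encode alpha subunits of the mitochondrial trifunctional protein, which joins hydratase and dehydrogenase activities. ech-1.1 had a mean of 0.69 ± 0.69 but did not pass (adjusted p = 0.0972), with 1.48 in prep 1 and 0.20 and 0.39 in preps 2 and 3. Both passing ech genes lay near the threshold. The call of ech-1.2 ended without prep 2 (mean 0.67, adjusted p = 0.135) and without prep 3 (mean 0.56, adjusted p = 0.238). For ech-4 it ended without prep 1 (mean 0.54, adjusted p = 0.231) and without prep 2 (mean 0.67, adjusted p = 0.154). It also ended without prep 3, though the mean was higher there (0.85, adjusted p = 0.0631). The members ech-8 and ech-9, neighbours on chromosome IV, had means of 0.51 ± 0.24 and -0.18 ± 0.43, ech-2 was at 0.39 ± 0.09, ech-5 at -0.01 ± 0.19 and ech-3 at -0.48 ± 0.37, and none of these 5 passed.

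For the second oxidation, the 2 members counted as hydroxyacyl-CoA dehydrogenases went opposite ways. ech-1.1 and ech-1.2, whose protein also has dehydrogenase activity, were counted with the hydratases above. Whether other ech genes, such as ech-8 and ech-9, encode this activity was not examined, so the step may hold more members. hacd-1 (V), a hydroxyacyl-CoA dehydrogenase gene, was at -2.21, -0.32 and -1.87 in preps 1, 2 and 3, a mean of -1.46 ± 1.01 (adjusted p = 0.0105). Prep 2 was much nearer to 0 than the other 2, yet all 3 preps were below 0, while all 3 preps of dhs-28 were at 1.89 or higher. The mitochondrial thiolase genes were higher. acaa-2 (III) was at 1.48, 1.15 and 1.29, a mean of 1.31 ± 0.17 (adjusted p = 0.00155), and kat-1 (II), which limits fat accumulation in the worm, was at 1.29, 0.81 and 1.16, a mean of 1.09 ± 0.25 (adjusted p = 0.00516). All 3 thiolase genes, daf-22 included, were thus higher, with a median of 1.31, and their preps did not overlap 0.

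Acyl-CoA synthetases formed the largest family and the most mixed one in value. Of 22 measured genes 4 were higher and 2 were lower, and 16 missed the threshold. Their median was -0.01, with means from -3.19 to 1.81. acs-5 (III), a synthetase of the long-chain type, was at 1.94, 1.92 and 1.56 in preps 1, 2 and 3, a mean of 1.81 ± 0.22 (adjusted p = 0.000268). acs-11 (II) was the other lower gene beside acs-2, at -1.90, -1.61 and -2.27, a mean of -1.93 ± 0.33 (adjusted p = 0.000239). The lowest prep of acs-5 and the highest prep of acs-11 were more than 3 log2 units apart. acs-22 (X), a fatty acid transport protein homologue, was at 0.69, 0.81 and 1.14, a mean of 0.88 ± 0.23 (adjusted p = 0.0144). Its call ended without prep 2, though the mean was higher there (0.92, adjusted p = 0.0580), and without prep 3 (mean 0.75, adjusted p = 0.102).

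A pair of synthetase genes differed between preps more than any other member. acs-20 (IV), another fatty acid transport protein homologue and a gene needed for the cuticle barrier, was at -0.84, 2.38 and 1.76, and did not pass (mean 1.1 ± 1.70, adjusted p = 0.136). Prep 1 lay below 0 and the other 2 far above it, and the mean was 2.07 without prep 1 (adjusted p = 9.3e-10, from 2 arrays), 0.46 without prep 2 (adjusted p = 0.636) and 0.77 without prep 3 (adjusted p = 0.244). acs-1 (V), which activates branched-chain fatty acids, was at -0.15, 2.41 and 1.54, a mean of 1.27 ± 1.3 (adjusted p = 0.0433), and it is the only called member with both signs among its preps. Its call ended without prep 2 (mean 0.69, adjusted p = 0.319), and its mean was 1.98 without prep 1 (adjusted p = 5.99e-09, from 2 arrays). The fit without prep 1 treated all genes as equally spread, so its p-values for acs-20 and acs-1 leave out the spread of these genes. Members that prep 1 placed more than 1 log2 unit under each of the other preps were acs-1, acs-20 and acdh-6, 3 of 57 (5.26%), while 3.53% of all genes did so. Of the 8 epidermis markers, 6 had their lowest value in prep 1, by more than 1 log2 unit under both other preps in 3, and 2 did not, elt-3 with its highest value there (-0.21, -0.90 and -0.64) and bli-1 with its lowest in prep 3 (0.52, 0.71 and 0.10). Their part in the values of acs-1 and acs-20 was not tested.

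Departures of other preps were as few. Prep 2 placed acox-1.2, daf-22 and hacd-1, 3 members (5.26%), more than 1 log2 unit over each of the others, while 3.24% of all genes stood out in this way. ech-1.1 was the 1 member (1.75%) as far above both others in prep 1, against 1.12% of all genes, and acox-1.5 the 1 member as far below both in prep 3, against 1.16%. Means of acs-14 and acs-4, 0.68 ± 0.38 and 0.63 ± 0.39, and of acs-19, an acetyl-CoA synthetase gene, at -0.71 ± 0.57, missed the threshold (adjusted p = 0.0568, 0.0748 and 0.0712). acs-3, which acts with the receptor NHR-25 in fat uptake, was at -1.08, -0.27 and 0.28 (adjusted p = 0.379). The remaining 11 synthetase genes had means between -0.50, for acs-25, and 0.31, for acs-15.

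**Figure D3:**
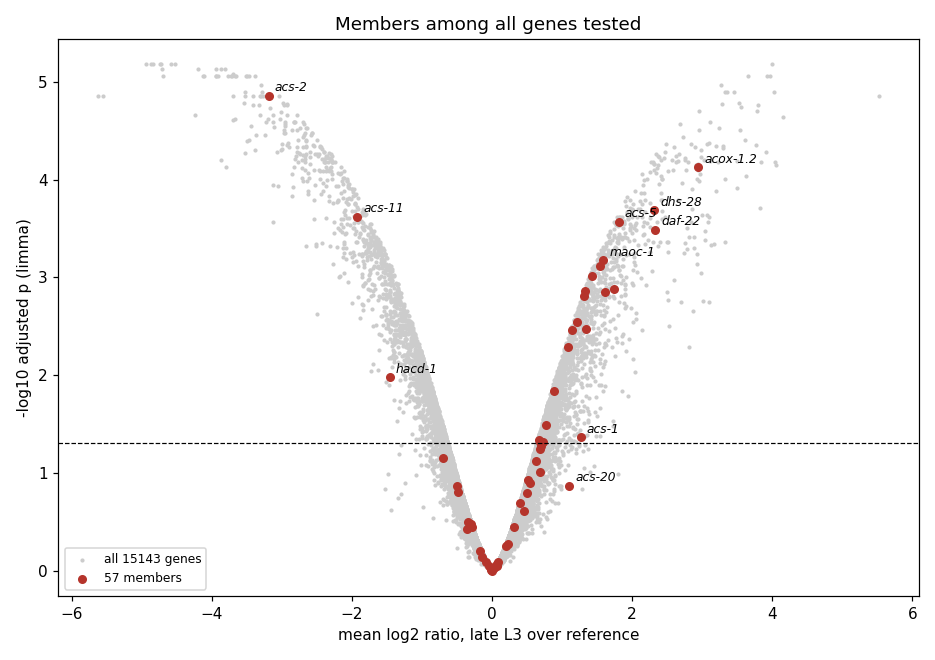
Mean log2 ratio of late L3 over reference (horizontal) against the -log10 adjusted p of limma (vertical) for all 15143 genes in grey and the 57 members in red; the dashed line is an adjusted p of 0.05. More members lie above the line on the right (21) than on the left (3), with acs-2 and acox-1.2 furthest out.

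Genes around the pathway were counted from lists written down for this purpose. Of 18 measured regulators of fat metabolism 2 were higher and 1 was lower, beside 11.4% higher and 11.9% lower over all genes, and their median was -0.02. The receptor gene nhr-49, known to drive acs-2, was at -0.12 ± 0.11 (adjusted p = 0.718), its cofactor gene mdt-15 at 0.31 ± 0.25, the SREBP gene sbp-1 at -0.01 ± 0.58 and the FOXO gene daf-16 at -0.13 ± 0.36, none of which passed. The members past the threshold were nhr-68, a regulator of the propionate shunt, at 1.43 ± 0.04, nhr-80, which acts on desaturase genes, at 0.80 ± 0.46, and aak-1, an AMP-activated kinase subunit gene, at -0.89 ± 0.27. The other 15 missed the threshold, which does not show that they were unchanged.

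Peroxisome biogenesis and transporter genes had 5 of 17 higher and 1 lower, beside 11.4% and 11.9% of all genes, with a median of 0.31. The ABC transporter genes pmp-5 at 1.99 ± 0.52 (adjusted p = 0.000352) and pmp-4 at 1.51 ± 0.39 (adjusted p = 0.00113) had the largest means, while the import receptor gene prx-5 was at 0.12 ± 0.22 (adjusted p = 0.727). The peroxisomal catalase gene ctl-2, at 0.50 ± 0.07, did not pass (adjusted p = 0.113). Besides pmp-5 and pmp-4, the passing genes of that list were pmp-1 at 1.03 ± 0.21, prx-11 at 0.87 ± 0.47, prx-12 at 0.69 ± 0.27 and prx-14 at -0.71 ± 0.07. Passing genes were thus found among transporters and among prx genes, with prx-14 the lower one.

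Electron transfer, auxiliary and acyl-CoA carrier genes had 4 of 16 higher and 1 lower, beside 11.4% and 11.9% of all genes, with a median of 0.09. etfa-1 and etfb-1, which encode the flavoprotein subunits that take electrons from acyl-CoA dehydrogenases, were both higher, at 1.45 ± 0.71 (adjusted p = 0.00417) and 1.36 ± 0.11 (adjusted p = 0.00115). Of the same list, let-721 was at 0.09 ± 0.08 (adjusted p = 0.789) and did not pass. Nor did decr-1.1, decr-1.2 and decr-1.3, with means of 0.21, -0.11 and -0.22. gbh-2, of carnitine synthesis, was at -2.33, -1.86 and -1.70 in preps 1, 2 and 3, a mean of -1.97 ± 0.33 (adjusted p = 0.000211), and gbh-1, of the same step, was at 0.03 ± 0.30 (adjusted p = 0.936). Lipolysis genes, which release the fatty acids, had 2 of 9 higher and 4 lower, beside the same shares of all genes, with a median of -0.60. The lysosomal lipase gene lipl-5 was at 2.22 ± 0.75 (adjusted p = 0.000412) and lipl-2 at -1.66 ± 0.17 (adjusted p = 0.000409). The lipolysis list thus had members on both sides.

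**Figure D4:**
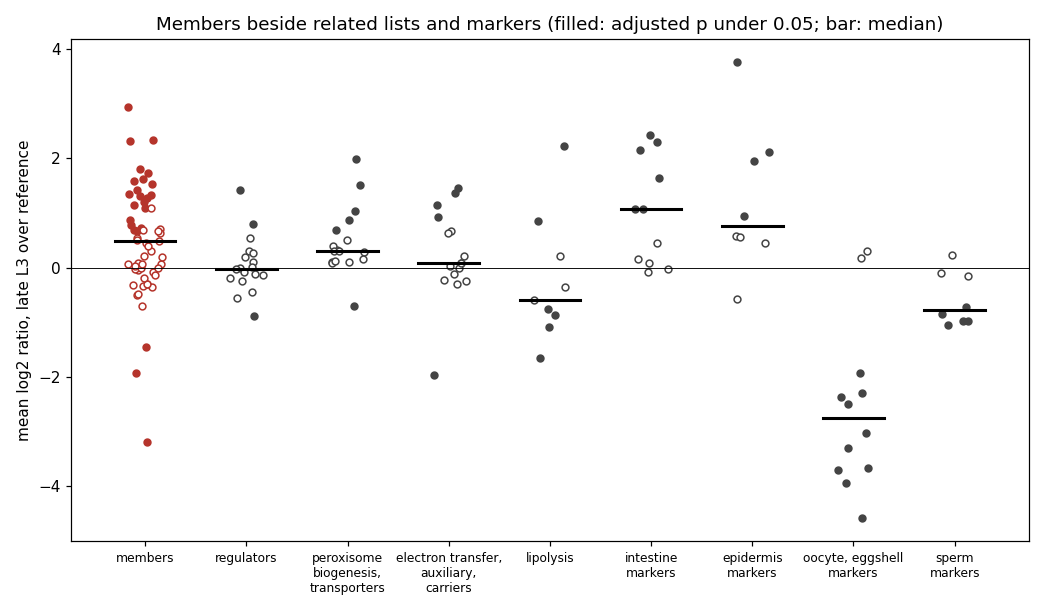
Mean log2 ratio of late L3 over reference for the 57 members (red) and for genes of related pathway lists and cell type markers (black); filled points passed an adjusted p of 0.05, and bars are medians. The member median is 0.49, intestine markers have a median of 1.08, and oocyte and eggshell markers have one of -2.76.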

How the data were processed

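The deposited values were log2 ratios of the 2 channels, 1 column per array, taken from the series' value table. The sources used here do not give the authors' normalization, spot filters or image software. The log2 base was read from the deposited values: as powers of 2, 100% of ratios under 0.3 came within 0.01 of whole thousandths. The table held 20000 probes, of which 19909, 19855 and 19875 had a value in preps 1, 2 and 3; arrays carry no count depth, so their number limits the precision. Spot intensities were not used here. The platform annotation named 1 gene for 15655 probes, several for 198 (among them 1 probe that names kat-1 with another gene, not used) and none for 4147. Names were updated through the RefSeq table of WBcel235 by gene ID (15569) or accession (7), and 79 kept the older name.

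The array median was subtracted from each array and a gene's probes were averaged. For the 15143 genes measured on every array, limma 3.58.1 (R 4.3.3) fitted an intercept by lmFit and eBayes. This 2-sided test of the mean against 0 was adjusted over all genes by Benjamini-Hochberg, at a threshold of 0.05. It does not include the reference's own spread. The variance used for each gene was drawn toward one shared by all genes (prior SD 0.397, prior degrees of freedom 7.93). A gene with a large SD, such as acs-1 (SD 1.3, limma standard error 0.39), was thus tested against a smaller spread than its own. The limma fit was also run on simulated data with spreads drawn from that same fit. That run therefore cannot show whether the calls hold for the real arrays. Named genes are all members past the threshold, the furthest 2 of each family, members with a known single role, and from each related list the 2 with means furthest from 0 among those past the threshold, with nhr-49, mdt-15, sbp-1 and daf-16. The genes prx-5, prx-11, prx-12, prx-14, pmp-1, ctl-2, gbh-1, etfb-1, let-721, decr-1.1, decr-1.2, decr-1.3, nhr-80, elt-3 and bli-1, and the other members, were added after their values were seen. The members and lists were chosen with earlier results of these data known. Sequence features had been planned, but no sequence table was used here. Alternatives covered centring, scaling, quantile normalization, missing values, probes, fits, thresholds, sign and each prep left out.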

Additional observations from a re-analysis of the deposited data

How the results depend on the processing

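Of the 24 called members, 18 kept their direction and their call under all 12 alternatives of centring, scaling, quantile normalization, missing values, probes, robust and weighted fits, the identifier trend and each prep left out. The other 6, acdh-3, acs-1, acs-7, acs-22, ech-1.2 and ech-4, lost the call at least once. Beside the preps left out, this came from arrays scaled to one spread for acs-1, acs-7 and ech-1.2 (adjusted p = 0.0631, 0.0696 and 0.0636 by limma), from the robust fit for acs-1 (0.0785) and from array weights for ech-4 (0.0589). Leaving out 1 prep gave 16 to 21 higher and 3 lower members, and 768 to 1750 higher and 1009 to 1542 lower genes in all, with the low ends without prep 2. Each such fit rested on 2 arrays. A call could end there while the mean rose, as for acs-22 without prep 2 and ech-4 without prep 3. Without prep 1 the prior degrees of freedom were infinite, so p-values of that fit treat every gene as equally spread. After a running median along the probe identifiers was subtracted, which was chosen after seeing the data, 22 members were higher and 5 lower, with acs-17 at -0.65 and acs-19 at -1.22 added. Means of other members moved in both directions with it. acs-4 went from 0.63 to 0.13 and acox-1.5 from 1.74 to 1.33, while ech-1.2 went from 0.68 to 1.1 and acs-7 from 0.73 to 0.99. Small means thus depend on this choice. A test that shares no spread between genes called 0 genes and 0 members, while 3272 genes and 21 members had an unadjusted p under 0.05 there, against 5387 and 33 with limma. At an adjusted p under 0.01, 890 genes were higher and 1001 lower, with 15 and 2 members, and with a difference of at least 1 log2 unit 1016 and 1054, with 16 and 3 members. At a threshold of 0.10 there were 25 and 4 members.

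The direction of the ratio is a further limit. With every sign turned, 3 members were higher and 21 lower (1804 and 1720 genes), and the means were -1.31 for acaa-2, -0.78, -1.34, -1.62 and -1.15 for acdh-3, acdh-7, acdh-9 and acdh-13, -1.33, -2.94, -1.54, -1.43, -1.74 and -1.21 for acox-1.1 to acox-1.5 and acox-3, -1.27, 3.19, -1.81, -0.73, 1.93 and -0.88 for acs-1, acs-2, acs-5, acs-7, acs-11 and acs-22, -2.33 for daf-22, -2.31 for dhs-28, -0.68 and -0.69 for ech-1.2 and ech-4, 1.46 for hacd-1, -1.09 for kat-1 and -1.59 for maoc-1. No paired analysis was possible because the arrays form a single group against a common reference.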
